A study of Mus musculus with 6 samples.

Results

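The genes described are the nuclear receptor superfamily of the mouse, the transcription factors that steroid and thyroid hormones, vitamins A and D, bile acids, oxysterols, fatty acids and xenobiotics switch on. The estrogen receptor gene *Esr1* was singled out within it because its difference between the groups was known from earlier results of these data. Of 45 genes named as members, 43 were measured, each by 1 probe set, among the 19938 genes with a single name on the arrays. The other 2, *Nr1h2* (LXR beta) and *Nr2e3*, were assigned to no probe set on their own and were not analysed here. The Rev-erb receptors *Nr1d1* and *Nr1d2* belong to the superfamily but are not among the members.

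Total liver RNA came from 3 Lkb1KOlivad mice, numbered B253, B304 and B305, and from 3 controls, numbered B256, B267 and B302. All were adult females, and each had an Affymetrix mouse gene array of its own. Lkb1KOlivad mice carry floxed *Lkb1* alleles (Lkb1 fl/fl) and TTR-CreTam, a tamoxifen-activated Cre recombinase driven by the hepatocyte promoter of transthyretin, so the kinase Lkb1 is removed from hepatocytes and not from the other cells of the liver. Controls were Lkb1 fl/fl mice without Cre. They carried the same floxed alleles and received tamoxifen too, itself a ligand of the estrogen receptors. The fasted state is given in the paper's results and not in the sample labels. Female sex comes from the labels, whereas the paper states that mostly males were studied. The values are log2 RMA signals, so a difference of 1 is a doubling. *Stk11*, which encodes Lkb1, had signals of 6.52, 6.42 and 6.48 in the Lkb1KOlivad livers, against 8.24, 8.13 and 7.96 in the control livers (log2 fold change of -1.64, standard error 0.12, limma adjusted p = 0.00705). No other gene of the 19938 passed the adjusted threshold of 0.05. Hepatocyte markers such as *Tat* and *Apoa1* were bright in all 6 livers, and the mean signal of the 11 measured markers ran between 11.67 and 11.83 in the Lkb1KOlivad livers and between 11.55 and 11.96 in the control livers. In whole liver, fewer cells of a type and less RNA per cell cannot be told apart.

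A nuclear receptor holds a zinc finger domain that reads short DNA half-sites and a ligand-binding domain whose shape decides whether coactivators or corepressors are bound. Steroid receptors wait with chaperones and bind DNA as pairs of the same receptor, whereas the receptors for thyroid hormone, retinoic acid, fatty acids, oxysterols, bile acids and xenobiotics pair with a retinoid X receptor (Rxr). In the liver these receptors set bile acid synthesis, fatty acid oxidation in fasting, lipogenesis and drug clearance, and hepatic estrogen receptor alpha takes part in lipid metabolism and in the response to estrogen.

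The difference of *Esr1*, the gene for estrogen receptor alpha, stood apart from those of the other receptors. It gave signals of 7.04, 7.06 and 6.78 in the Lkb1KOlivad livers (mean 6.96 ± 0.16, SD, n = 3), against 6.04, 5.91 and 6.04 in the control livers (6.0 ± 0.076, SD, n = 3). The lowest Lkb1KOlivad liver, B305, lay above the highest control liver, and the gap between the groups was wider than the range within either. The difference was 0.96 on the log2 scale (standard error 0.12, 95% interval 0.68 to 1.25), or 1.95-fold with an interval of 1.61 to 2.37. It did not pass the adjustment over all genes (limma p = 3.325e-05, adjusted p = 0.332, exact permutation p = 0.1), although only 1 gene of the 19938 had a smaller limma p. The two-sided exact permutation test of 3 against 3 mice cannot go below 0.1. *Esr1* had an unadjusted p under 0.05 under each of 16 other ways of testing the data, with a difference of 0.92 to 1.06. All but the methods' own test were limma fits, and the adjusted p of *Esr1* ranged from 0.149 to 1.0 among the 16. *Esr1* was singled out from these same arrays, so its p-values, its interval and these fits are no independent support for its difference. The mice carry numbers in the two-hundreds (B253, B256 and B267) or in the three-hundreds (B302, B304 and B305), and *Esr1* was higher by 1.07 within the first series and by 0.88 within the second. B253 alone stands for the Lkb1KOlivad group in the first and B302 alone for the controls in the second. Only the Lkb1KOlivad mice carried the tamoxifen-activated Cre, so the loss of Lkb1 and the presence of the transgene cannot be told apart. Whether RNA of the transgene adds to the signal of the 1 *Esr1* probe set was not tested.

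The sequences shown first are the 250 bases before each of 2 annotated starts of *Esr1*, because *Esr1* carried the largest difference of the members, and the 250 bases before an internal start of the retinoic acid receptor gene *Rarb*, the 1 receptor lower at a p under 0.05 before adjustment. They come from RefSeq on GRCm38.p6, whose table matched 41 members with 62 windows, and capitals mark nuclear receptor half-sites (the half-site AGGTCA, the variant AGTTCA, the variant GGGTCA and the variant GGTTCA, searched on both strands). The windows lie at chr10:4611739-4611988 and chr10:4709908-4710157 on the plus strand for *Esr1* and at chr14:16575477-16575726 on the minus strand for *Rarb*. The *Rarb* start is the 1 that the table lists, and it lies inside the gene's annotated span, far from its outermost start.
Esr1 first start: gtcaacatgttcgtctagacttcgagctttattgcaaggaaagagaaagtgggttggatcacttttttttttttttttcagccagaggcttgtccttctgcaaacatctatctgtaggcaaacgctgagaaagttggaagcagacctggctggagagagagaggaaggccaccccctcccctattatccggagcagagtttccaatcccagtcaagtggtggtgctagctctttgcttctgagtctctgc
Esr1 second start: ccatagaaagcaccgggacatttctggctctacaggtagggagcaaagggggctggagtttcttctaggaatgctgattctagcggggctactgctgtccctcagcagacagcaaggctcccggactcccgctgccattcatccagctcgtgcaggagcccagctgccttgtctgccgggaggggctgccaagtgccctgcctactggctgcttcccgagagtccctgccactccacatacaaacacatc
Rarb: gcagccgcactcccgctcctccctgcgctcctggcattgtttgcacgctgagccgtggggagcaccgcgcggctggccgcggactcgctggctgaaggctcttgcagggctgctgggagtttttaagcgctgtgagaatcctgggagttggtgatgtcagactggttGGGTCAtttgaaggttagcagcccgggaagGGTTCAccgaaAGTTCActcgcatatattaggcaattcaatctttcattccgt

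Neither *Esr1* window held any of the 4 half-sites. In the *Rarb* window, GGTTCA and AGTTCA stand in the same direction with 5 bases between them, from 53 to 37 bases before that start, an arrangement called a direct repeat 5 and known as the retinoic acid response element of this gene. A further half-site, GGGTCA, lies from 83 to 78 bases before the start. Of the 62 member windows, 1 (1.61%) held such a repeat of these half-sites, against 0.0883% of all 32851 promoters of the same length. Single half-sites were in 37.1% of the member windows and in 38.6% of all promoters. The estrogen response element GGTCANNNTGACC was in 0 member windows and in 0.0639% of all promoters. The repeats with 1 to 4 bases between the half-sites were in 0 member windows too. Of all promoters, 0.164% held the repeat with 1 base between, 0.174% that with 2, 0.0396% that with 3 and 0.067% that with 4. At shares this low, a count of 0 among 62 windows does not set the members apart. A match describes the letters of the window and not a bound site.

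Across the superfamily the differences were small and went both ways. The median log2 fold change of the 43 receptors was 0.00, with 22 above 0 and 21 below, and that of all genes was 0.00 as well. The median size of a difference, regardless of sign, was 0.10 for the receptors and 0.09 for all genes. With 3 mice per group, a 95% interval reached a median of 0.34 to either side for the receptors, so changes well below that size were not detectable. None of the 43 passed the adjusted threshold (0 receptors, against 0.00502% of all genes). At an unadjusted limma p under 0.05, 3 receptors were higher (6.98%), against 1.52% of all genes, and 1 was lower (2.33%), against 1.51% of all genes. The 3 Lkb1KOlivad livers lay above all 3 control livers for 2 receptors, *Esr1* and *Nr2c1* (4.65%), against 3.46% of all genes. They lay below all control livers for 1 receptor, *Rara* (2.33%), against 3.7% of all genes. *Esr1*, singled out from these same data, is 1 of the 3 higher. Apart from *Esr1*, these counts rest on differences of 0.21 to 0.43 in size. The count higher was 1 without mouse B304 or without B302 and 5 without B305, and the count lower was 0 without B304 or without B256 and 2 without B302.

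**Figure D1:**
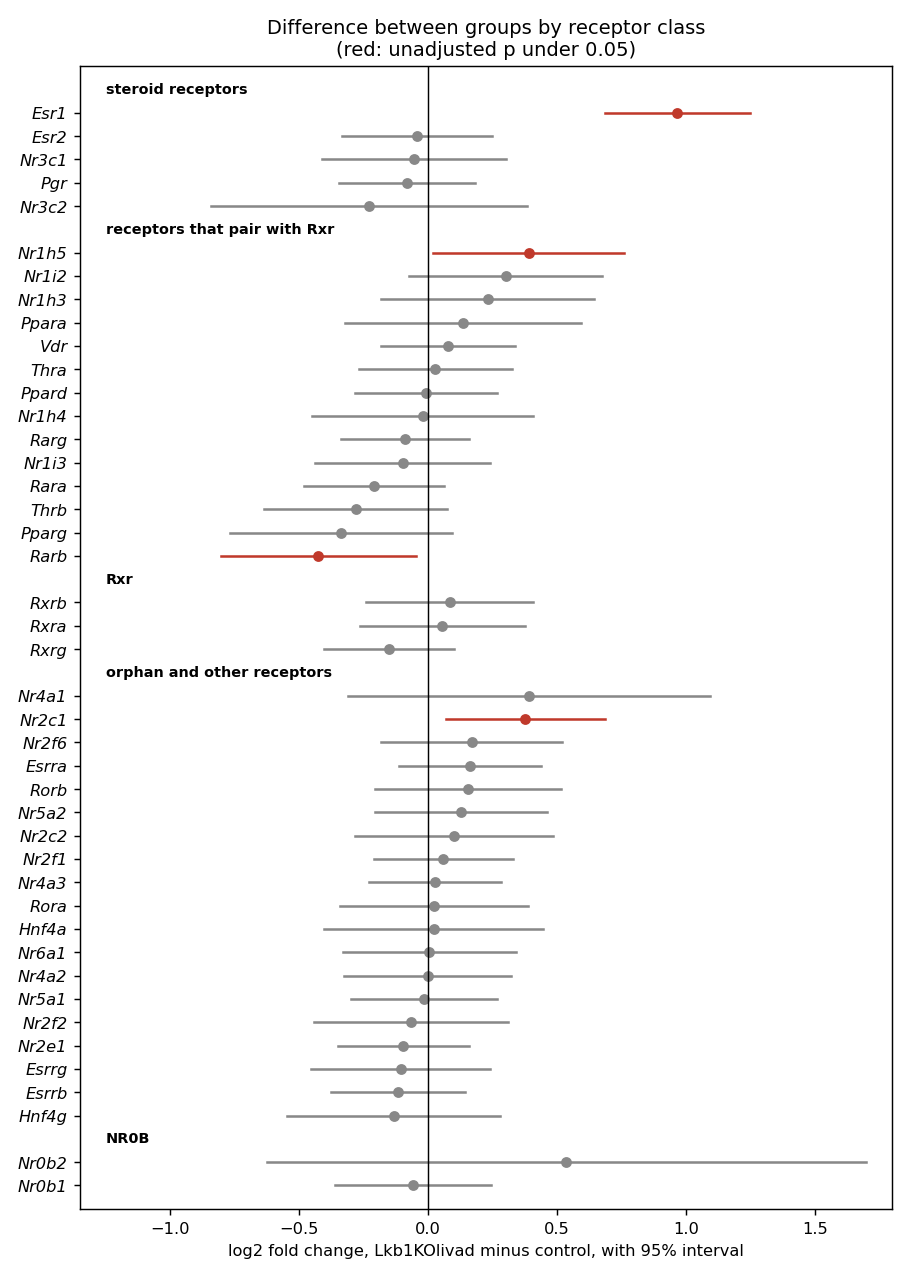
Log2 fold change of each of the 43 receptors (Lkb1KOlivad minus control, points) with its 95% interval from limma (lines), ordered within receptor classes, with receptors at an unadjusted p under 0.05 in red. *Esr1*, at 0.96 with an interval of 0.68 to 1.25, has no other receptor's point near it, and the interval of most receptors spans 0.

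Among the 5 steroid receptors, *Esr1* was the 1 past the unadjusted threshold, against 1.52% of all genes higher, and the other 4 lay below 0. *Esr2*, which encodes estrogen receptor beta, was dim, with signals of 4.03, 3.92 and 4.28 in the Lkb1KOlivad livers and of 4.07, 4.11 and 4.18 in the control livers. The groups overlapped, with a difference of -0.04 (95% interval -0.33 to 0.25). *Nr3c1*, the glucocorticoid receptor through which corticosterone raises gluconeogenesis in fasting, had signals of 7.13, 7.0 and 7.21 in the Lkb1KOlivad livers and of 7.39, 7.27 and 6.85 in the control livers. Its difference was -0.06 (95% interval -0.41 to 0.30), and control liver B302 was the lowest of all 6 while the other 2 controls were the highest. *Pgr*, the progesterone receptor, is a textbook estrogen-induced gene of the reproductive tract. It was dim in liver, with means of 4.12 in the Lkb1KOlivad and 4.20 in the control livers. *Nr3c2*, the mineralocorticoid receptor, had a difference of -0.23 that came from the single control liver B267, at 5.95, while the other 5 livers lay between 4.76 and 5.23.

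The receptors that pair with Rxr include the main metabolite sensors of the liver, and 6 of the 14 lay above 0 and 8 below. The 3 retinoic acid receptors lay below 0 together, with a median of -0.21. *Rarb*, whose promoter is shown above, had signals of 4.93, 4.81 and 5.20 in the Lkb1KOlivad livers, against 5.36, 5.69 and 5.17 in the control livers. Liver B305 reached the level of control B302, so the groups overlapped. The difference was -0.43 (standard error 0.17, 95% interval -0.80 to -0.05, limma p = 0.0312, exact permutation p = 0.2), and it kept its direction but had a p under 0.05 in only 8 of the 15 other fits that measured it. It was -0.60 within the two-hundreds and -0.16 within the three-hundreds. *Rara* had signals of 5.89, 5.83 and 5.77 in the Lkb1KOlivad livers, against 5.95, 5.97 and 6.21 in the control livers. The groups did not overlap, yet the gap between the nearest livers was small and the difference of -0.21 had a 95% interval of -0.48 to 0.06 (exact permutation p = 0.1). *Rarg*, the third of them, differed by -0.09.

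Markers of the other liver cells are given beside these values. Of them *Lrat*, the enzyme with which stellate cells store vitamin A as retinyl ester, had signals of 5.40, 5.44 and 5.36 in the Lkb1KOlivad livers, against 6.07, 5.82 and 5.60 in the control livers. The groups did not overlap, and the difference was -0.43 (95% interval -0.75 to -0.12, limma adjusted p = 1.0). All 10 stellate cell markers lay at or below 0, with a median of -0.17, where 9654 of all 19938 genes lay below 0. Their mean signal ran between 5.88 and 6.10 in the Lkb1KOlivad livers and between 6.02 and 6.26 in the control livers, so the groups overlapped. *Dcn*, a matrix protein gene of these cells, averaged 10.22 in the Lkb1KOlivad and 10.54 in the control livers. Sinusoidal endothelial markers were below 0 for 9 of 10 genes (median -0.22), with a mean signal of 6.66 to 6.81 in the Lkb1KOlivad livers and of 6.81 to 7.11 in the control livers. For this list the groups did not overlap, though the highest Lkb1KOlivad mean (6.8096) lay only just below the lowest control mean (6.8108). Kupffer cell markers were below 0 for 8 of 10 genes (median -0.16), with a mean signal of 6.94 to 7.27 in the Lkb1KOlivad livers and of 6.84 to 7.51 in the control livers. The 5 cholangiocyte markers had a median of -0.00. Of 6 lymphocyte markers, 1 was higher and 1 lower at an unadjusted limma p under 0.05, against 1.52% and 1.51% of all genes. The part of cell composition in the difference of *Rarb* was not tested.

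*Nr1h5*, which encodes FXR beta, a lanosterol receptor in mice, had signals of 3.96, 4.33 and 4.33 in the Lkb1KOlivad livers, against 3.61, 4.08 and 3.75 in the control livers. Liver B253 lay below control B267, and all 6 signals were among the dimmest of the superfamily. The difference was 0.39 (standard error 0.16, 95% interval 0.02 to 0.76, limma p = 0.0417, exact permutation p = 0.2), and it had a p under 0.05 in 9 of 15 other fits.

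The bright metabolite sensors showed no difference beyond the spread between mice. *Nr1h4*, the bile acid receptor FXR, had signals of 9.24, 9.80 and 9.74 in the Lkb1KOlivad livers and of 9.49, 9.91 and 9.45 in the control livers, with a difference of -0.02 (95% interval -0.45 to 0.40). *Nr1i3*, the xenobiotic receptor CAR, had signals of 8.96, 9.39 and 9.07 in the Lkb1KOlivad livers and of 9.24, 9.41 and 9.07 in the control livers (difference -0.10, interval -0.44 to 0.24). For both genes the values of the groups interleave. *Ppara*, the receptor that drives fatty acid oxidation and ketogenesis in fasting, had signals of 8.69, 8.57 and 7.94 in the Lkb1KOlivad livers and of 8.11, 8.45 and 8.23 in the control livers. Livers B253 and B304 were the highest of the 6 and B305 the lowest, which left a difference of 0.13 with an interval of -0.32 to 0.59.

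*Nr1i2*, the xenobiotic receptor PXR, had signals of 7.93, 8.10 and 7.66 in the Lkb1KOlivad livers, against 7.86, 7.56 and 7.37 in the control livers. Its difference was 0.30 (interval -0.07 to 0.68), and B305 fell below control B256. *Thrb*, the main thyroid hormone receptor of the liver, had signals of 7.41, 7.27 and 7.16 in the Lkb1KOlivad livers, against 7.60, 7.27 and 7.81 in the control livers (difference -0.28, interval -0.64 to 0.07). Control B267 was level with liver B304 and below B253, so the groups overlapped, and the difference was -0.03 within the two-hundreds and -0.60 within the three-hundreds. The remaining 5 fell between -0.34 for *Pparg*, the receptor of fat storage, and 0.23 for *Nr1h3*, the oxysterol receptor LXR alpha. Between them were *Thra*, the second thyroid hormone receptor, at 0.03, *Ppard*, the broadly expressed fatty acid receptor, at -0.01, and *Vdr*, the vitamin D receptor, at 0.08 with a dim control mean of 4.08.

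Rxr is the shared partner of these receptors. *Rxra*, the main form in hepatocytes, had signals of 8.90, 8.76 and 8.53 in the Lkb1KOlivad livers and of 8.59, 8.58 and 8.86 in the control livers. The groups overlapped, and the difference was 0.05 (interval -0.26 to 0.37). *Rxrb* differed by 0.08 and *Rxrg* by -0.15, both with intervals that span 0.

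**Figure D2:**
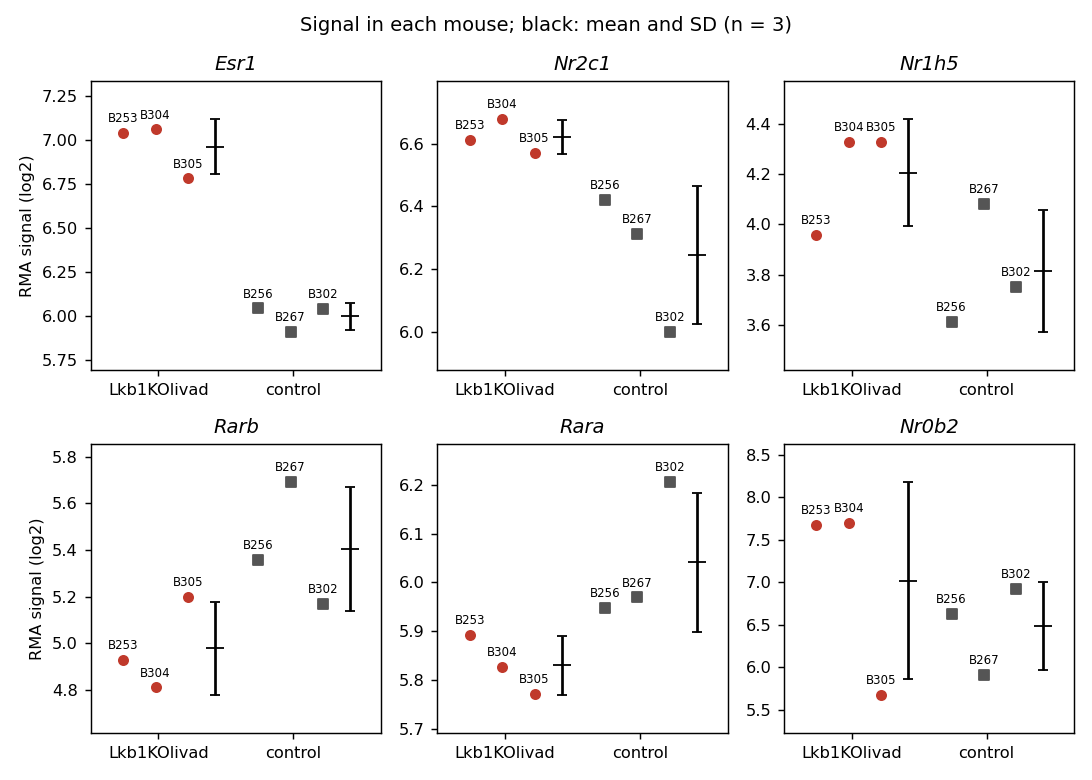
Log2 RMA signal in each mouse for *Esr1*, *Nr2c1*, *Nr1h5*, *Rarb*, *Rara* and *Nr0b2* (red circles: Lkb1KOlivad; grey squares: control), with the mean and SD of 3 mice in black and a separate axis for each gene. *Esr1* leaves a wide gap between 6.78 and 6.04, *Nr2c1* and *Rara* leave narrow gaps, and the groups overlap for the other genes.

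The 19 orphan and other receptors had a median of 0.02, with 12 above 0 and 7 below. *Nr2c1* (TR2), an orphan receptor that represses embryonic globin genes together with *Nr2c2* (TR4), was the 1 of them at the unadjusted threshold, against 1.52% of all genes higher. It had signals of 6.61, 6.68 and 6.57 in the Lkb1KOlivad livers, against 6.42, 6.31 and 6.0 in the control livers. The groups did not overlap, and most of the spread lay in control B302. The difference was 0.38 (standard error 0.14, 95% interval 0.07 to 0.69, limma p = 0.0224, exact permutation p = 0.1), or 1.30-fold. The limma p exceeded 0.05 when Lkb1KOlivad mouse B304 or control mouse B302 was left out, and the difference was 0.25 to 0.47 over all 16 fits. *Nr2c2* itself had signals of 7.85, 8.13 and 8.11 in the Lkb1KOlivad livers and of 8.16, 8.04 and 7.59 in the control livers. Those values overlapped, with a difference of 0.10 (interval -0.28 to 0.48).

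*Hnf4a*, which holds up the hepatocyte program, had signals of 10.01, 9.66 and 9.58 in the Lkb1KOlivad livers and of 10.07, 9.43 and 9.68 in the control livers (difference 0.02, interval -0.40 to 0.45). *Rora*, which opposes the Rev-erb receptors on clock genes, had signals of 8.94, 8.88 and 8.50 in the Lkb1KOlivad livers and of 8.98, 8.67 and 8.61 in the control livers (difference 0.02, interval -0.34 to 0.39). *Nr5a2* (LRH1), a partner of FXR and SHP in bile acid synthesis, had signals of 8.78, 8.76 and 8.41 in the Lkb1KOlivad livers and of 8.51, 8.37 and 8.69 in the control livers (difference 0.13, interval -0.21 to 0.46). In all 3 genes mouse B305 was the lowest Lkb1KOlivad liver, and it lay below at least 1 control.

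The 3 estrogen related receptors, orphan relatives of *Esr1* that do not bind estrogen, did not share its difference: *Esrra* was at 0.16, *Esrrb* at -0.12 and *Esrrg* at -0.11. Of the immediate early receptors, *Nr4a1*, a gene that glucagon signalling switches on in liver, stood at 5.61 in Lkb1KOlivad liver B253 while the other 5 livers lay between 4.20 and 4.81. Its difference of 0.39 was thus 1.11 within the two-hundreds and 0.08 within the three-hundreds, and *Nr4a2* and *Nr4a3* differed by -0.00 and 0.03. The COUP family (*Nr2f1* at 0.06, *Nr2f2* at -0.07, *Nr2f6* at 0.17) and *Nr6a1* (0.00) were close to 0. *Hnf4g* (-0.13) had the lowest control mean of all members, 3.47. Receptors known for the gonads, adrenal or nervous system, *Nr5a1*, *Nr2e1*, *Nr0b1* and *Rorb*, sat between 3.70 and 5.16 in the control livers, and the arrays give no detection calls that would say whether such signals are above background.

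*Nr0b2* (SHP), a receptor without a DNA-binding domain that bile acids induce and that holds back bile acid synthesis, had the widest interval of all members. It had signals of 7.68, 7.70 and 5.68 in the Lkb1KOlivad livers (SD 1.16), against 6.62, 5.91 and 6.92 in the control livers (SD 0.52). Livers B253 and B304 were the highest of the 6 and B305 the lowest. The difference of 0.53 therefore had an interval of -0.63 to 1.70, with 1.41 within the two-hundreds and -0.23 within the three-hundreds. *Nr0b1* (DAX1), which also lacks that domain, differed by -0.06.

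**Figure D3:**
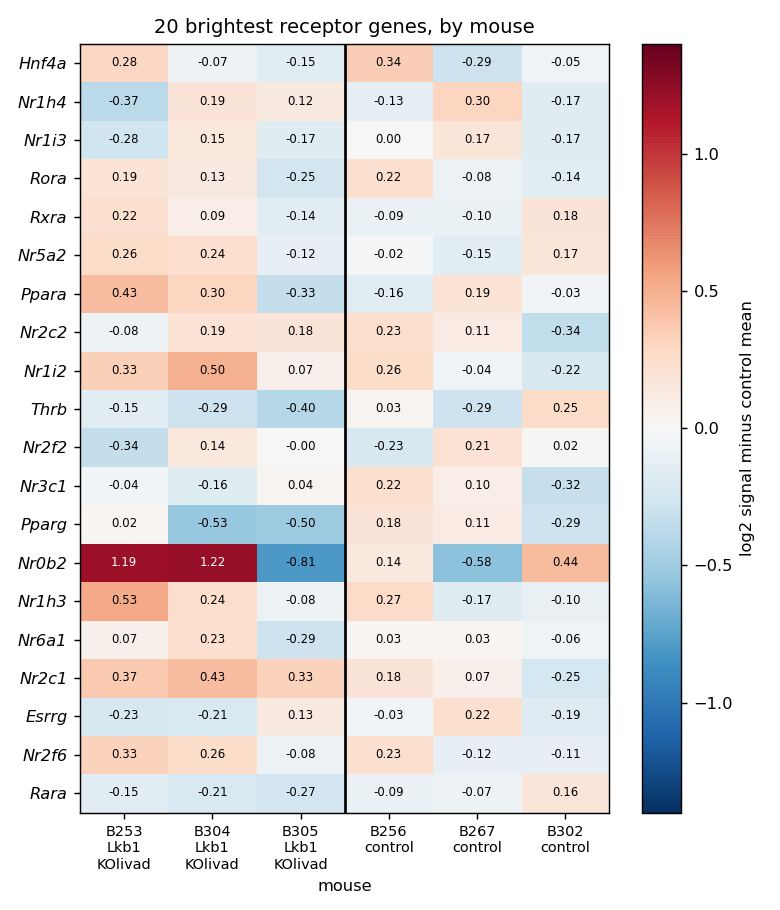
Log2 signal of the 20 brightest receptors in each mouse as its distance from the average control liver, genes ordered by control mean, Lkb1KOlivad mice left of the line and control mice right of it. *Nr0b2* spans the widest range, with signals of 7.68, 7.70 and 5.68 behind its Lkb1KOlivad cells, and in many rows B305 is blue where B253 and B304 are red.

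The mice differed among themselves along many bright receptors. Over the 20 brightest, the median deviation from the control mean was 0.13 in B253, 0.17 in B304 and -0.13 in B305, against 0.09 in B256, -0.01 in B267 and -0.10 in B302. *Esr1* was lowest in B305 among the Lkb1KOlivad livers too, at 6.78, and still above every control. Whole arrays correlated closely, and the nearest array to B253 was control B256 (r = 0.989 over all genes), while B304 and B305 were nearest to each other (r = 0.990). Array medians ran from 5.23 to 5.28.

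Ordered by the control mean, the receptors that lead are those of hepatocyte function. *Hnf4a* (9.73), *Nr1h4* (9.62), *Nr1i3* (9.24), *Rora* (8.75), *Rxra* (8.68), *Nr5a2* (8.52) and *Ppara* (8.27) came first, and *Hnf4a* was brighter than 97.4% of all genes. *Esr1* was the 21st of 43 in the control livers, above 65.0% of all genes. The signals of different probe sets depend on their probes as well as on the RNA, so this order describes the arrays and does not measure which receptor has more mRNA.

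**Figure D4:**
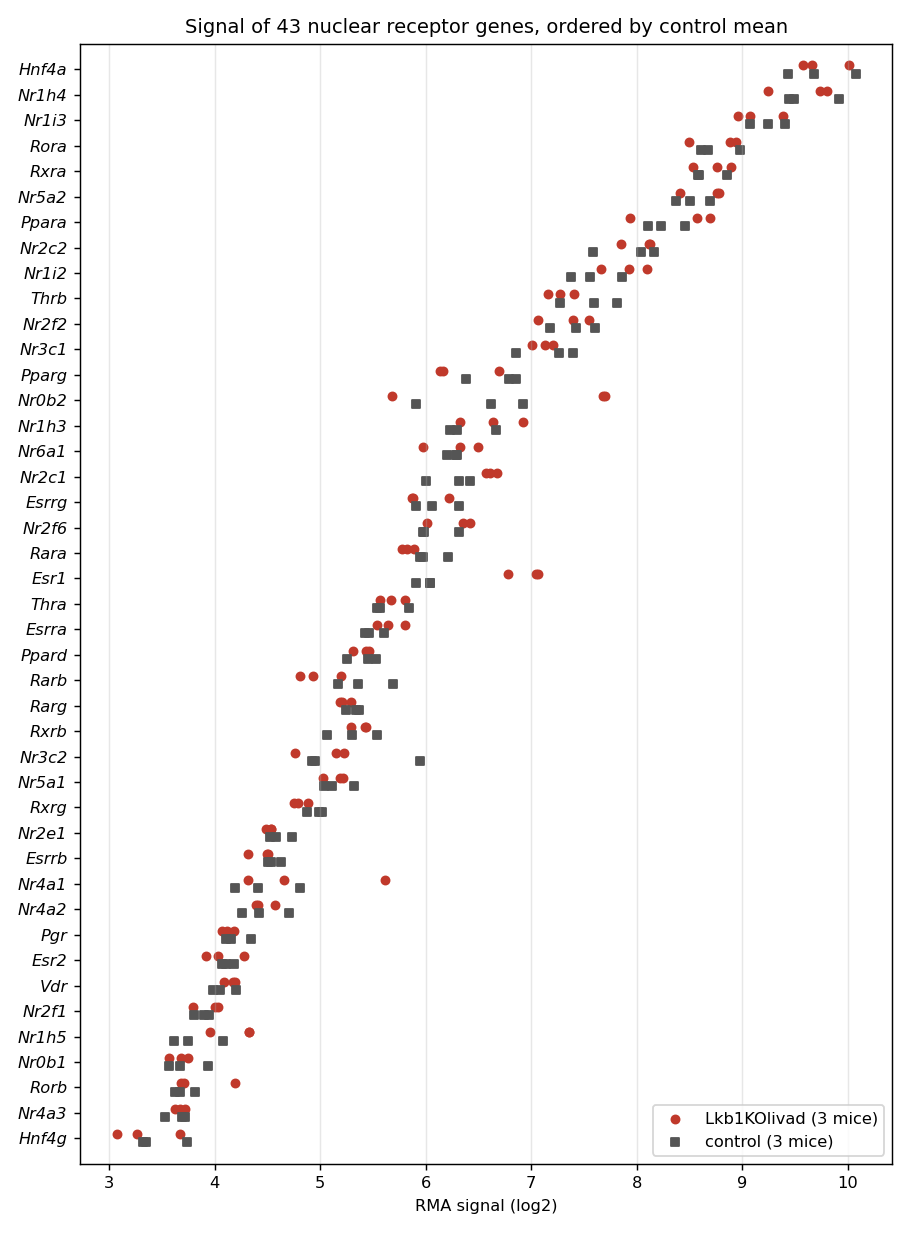
Log2 RMA signal of all 43 receptors in each mouse, ordered by the control mean (red circles: 3 Lkb1KOlivad mice; grey squares: 3 control mice). For most receptors the groups overlap, from *Hnf4a* (control mean 9.73) to *Hnf4g* (3.47), and *Esr1* leaves the control points by 0.96 on average.

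Partner and target genes of the receptors were described from 14 lists, chosen with earlier results of these data known, and 0 genes in any of them passed the adjusted threshold in the fit without a block. Of 16 coactivators, 0 had an unadjusted limma p under 0.05, where 1.52% of all genes were higher and 1.51% lower, and the median was 0.01. *Ppargc1a* (PGC-1 alpha), the fasting coactivator of *Ppara*, *Hnf4a* and *Nr3c1*, had signals of 8.24, 9.23 and 9.24 in the Lkb1KOlivad livers, against 8.33, 8.22 and 8.48 in the control livers (difference 0.56, interval -0.01 to 1.13). Livers B304 and B305 were above every control and B253 was not. Of 8 corepressors measured, 0 had an unadjusted limma p under 0.05, against the same shares of all genes. *Nrip1* (-0.21, interval -0.47 to 0.05) and *Gps2* (-0.25, interval -0.57 to 0.07) lay below all controls. *Lcor* (0.27, interval -0.01 to 0.56) lay above all controls. Of all genes, 3.7% lay below all controls and 3.46% above. Of 9 chaperones that hold steroid receptors ready for ligand, 7 lay above 0, with a median of 0.17. At an unadjusted limma p under 0.05, 1 was higher and 0 were lower, against 1.52% and 1.51% of all genes. That gene was *Dnajb1*, a heat shock cofactor (difference 0.61, interval 0.03 to 1.20, limma adjusted p = 0.9997). Liver B305 (6.17) lay below control B256 (6.45), so the groups overlapped. With array weights the unadjusted limma p of *Dnajb1* was 0.0813.

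The listed genes that answer to estrogen were not higher as a group, with a median of -0.16. Of 8 measured, 0 were higher and 1 was lower at an unadjusted limma p under 0.05, against 1.52% and 1.51% of all genes. *Greb1* and *Tff1*, classic targets of estrogen receptor alpha in breast cells, differed by 0.04 and 0.02. *Greb1* and *Ltf*, another gene of the list, were dim, with control means of 3.91 and 4.01. The activity of the receptor was not tested. The gene lower was *Myc*, a growth factor response gene with many inputs besides estrogen. It had signals of 7.43, 6.84 and 6.87 in the Lkb1KOlivad livers, against 8.62, 8.18 and 8.36 in the control livers. All 3 Lkb1KOlivad livers lay below all 3 controls (difference -1.34, interval -1.77 to -0.91, limma adjusted p = 0.352). With mice B253 and B256 treated as a block, a fit added after seeing the data, the same difference passed the threshold (limma adjusted p = 0.0476). *Ctsd*, a lysosomal protease, was also below all controls, at -0.20 (interval -0.45 to 0.06), and *Ccnd1*, the cyclin of early cell cycle entry, differed by -0.42 (interval -0.94 to 0.10). In the liver, *Igf1* (-0.13) and *Xbp1* (-0.26) have other main regulators, and neither had a limma p under 0.05.

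The target lists of the other receptors had medians between -0.13 for LXR and 0.12 for FXR. The FXR list holds genes that FXR induces and genes that it represses. The ROR and Rev-erb list pools targets of receptors that oppose each other. The sign of these 2 medians therefore gives no direction of receptor action. Of 12 glucocorticoid receptor targets, 2 were higher at an unadjusted limma p under 0.05 and 0 were lower, against 1.52% and 1.51% of all genes, and 6 lay above 0 and 6 below. *Tsc22d3* (GILZ) had signals of 7.15, 7.46 and 6.91 in the Lkb1KOlivad livers, against 6.61, 6.59 and 6.39 in the control livers (difference 0.64, interval 0.29 to 1.0, limma adjusted p = 1.0). *G6pc*, the last enzyme of gluconeogenesis, had signals of 11.45, 11.03 and 10.67 in the Lkb1KOlivad livers, against 10.31, 10.55 and 10.63 in the control livers (difference 0.56, interval 0.11 to 1.0), and its difference was 0.36 without mouse B253. In both genes the groups did not overlap. Among the other targets, *Zbtb16* (0.44) and *Dusp1* (0.33) lay above 0 and *Fkbp5* (-0.23) and *Per1* (-0.23) below it, with intervals that span 0.

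The 21 targets of *Ppara* had a median of 0.03. Of them, 0 had an unadjusted limma p under 0.05, where 1.52% of all genes were higher and 1.51% lower. *Acot2*, a mitochondrial acyl-CoA thioesterase, came nearest at -0.26 (interval -0.53 to 0.01). Of 10 FXR targets, *Nr0b2* among them, 1 was higher and 0 lower at that threshold, against 1.52% and 1.51% of all genes. That gene was *Cyp8b1*, the enzyme that makes cholic acid, which FXR and SHP repress and *Hnf4a* activates, so it stands in 3 of the lists. It had signals of 9.84, 9.18 and 9.47 in the Lkb1KOlivad livers, against 9.24, 8.46 and 8.62 in the control livers (difference 0.72, interval 0.20 to 1.25, limma adjusted p = 1.0). Liver B304 lay just below control B256, so the groups overlapped, and *Cyp7a1*, the rate-limiting enzyme of bile acid synthesis, differed by -0.21 with groups that overlapped.

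All 11 LXR targets lay below 0, with a median of -0.13, where 9654 of all 19938 genes lay below 0. Of the 11, 1 was lower at a limma p under 0.05, against 1.51% of all genes. *Fasn*, the fatty acid synthase, had signals of 6.89, 6.54 and 6.60 in the Lkb1KOlivad livers, against 7.46, 7.40 and 6.82 in the control livers (difference -0.54, interval -0.97 to -0.12). Control B302 overlapped with liver B253. The transporters that answer most directly to LXR, *Abca1* (-0.03) and *Abcg1* (-0.03), were near 0. *Thrsp*, a lipogenic gene that thyroid hormone induces, was the 1 of 6 thyroid hormone targets past the unadjusted threshold, against 1.51% of all genes lower. It had signals of 8.11, 7.84 and 7.78 in the Lkb1KOlivad livers, against 8.30, 10.08 and 8.63 in the control livers (difference -1.09, interval -1.99 to -0.20). Much of that difference came from control B267, and without this mouse it was -0.55.

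Of 10 CAR and PXR targets, 0 were higher and 1 was lower at an unadjusted limma p under 0.05, against 1.52% and 1.51% of all genes. *Abcb1a*, a drug efflux pump, had signals of 6.0, 6.13 and 5.80 in the Lkb1KOlivad livers, against 6.65, 6.77 and 6.26 in the control livers (difference -0.59, interval -0.96 to -0.22, limma adjusted p = 1.0). The groups did not overlap. Of 6 retinoic acid targets, 0 had an unadjusted limma p under 0.05, against the same shares of all genes. *Cyp26a1*, which clears retinoic acid and is induced by it, had signals of 5.80, 5.68 and 5.74 in the Lkb1KOlivad livers, against 7.73, 6.70 and 5.41 in the control livers. The Lkb1KOlivad livers sat close together and the controls were spread on both sides of them, so the difference of -0.87 had an interval of -1.94 to 0.20. The 11 targets of *Hnf4a* had a median of 0.00, the 7 targets of the ROR and Rev-erb receptors one of 0.04, and the 26 genes that make, carry or clear the ligands one of -0.01. *Nr1d1* (Rev-erb alpha), outside the members, was at 9.21 in B253 and between 7.86 and 8.61 in the other 5 livers.

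**Figure D5:**
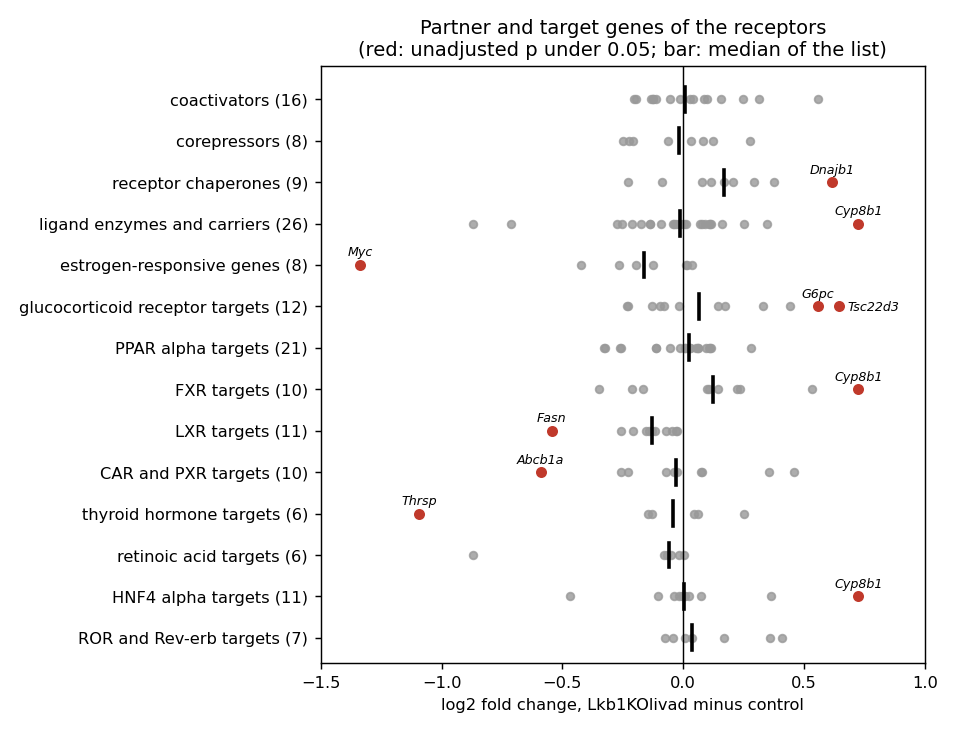
Log2 fold change (Lkb1KOlivad minus control) of each gene in the 14 lists of receptor partners and targets (points; number of genes in parentheses), with the median of each list as a black bar and genes at an unadjusted p under 0.05 in red and named. The medians lie between -0.16 and 0.17, and *Myc* at -1.34 and *Thrsp* at -1.09 are the points farthest from 0.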

How the data were processed

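Liver RNA from 3 Lkb1KOlivad and 3 control mice was measured on Affymetrix mouse gene arrays. The deposited values are log2 RMA signals, which the authors background-corrected, normalized between arrays and summarized into probe sets. The labels name RMA, Partek and NuGEN kits, whereas the methods name an Affymetrix labelling kit, Expression Console and BRB-ArrayTools. Versions were not given in the sources used here, and the number of arrays limits precision. Groups come from the labels.

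Of 35556 probe sets, 21789 had 1 gene symbol in an annotation of an earlier array generation than the methods name, 1621 had several and 12146 had none. Symbols of 21698 were looked up by gene identifier. For 999 genes with several probe sets the brightest was used, which gave 19938 genes. Lkb1KOlivad and control livers were compared by two-sided moderated tests of limma 3.58.1 (lmFit, then eBayes) under R 4.3.3 without covariates. P-values were adjusted after Benjamini and Hochberg across all genes at a threshold of 0.05, intervals are 95% intervals, and the procedure was tested on simulated data. Single genes also had an exact permutation test.

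The members and lists were chosen with earlier results of these data known. Values in every mouse were given for receptors at an unadjusted p under 0.05, those whose groups do not overlap with a difference of 0.2 or more, the 10 brightest in control livers, and *Esr1*, *Esr2*, *Nr3c1* and *Nr0b2* (18 in all), and up to 3 genes with the smallest p were named of each list. Other list genes, and *Nr4a1*, *Nr3c2* and *Nr1d1*, were named after their values were seen. The alternatives included quantile normalization, centring on array medians, leaving out dim genes, averaging a gene's probe sets, array weights and robust eBayes with an intensity trend. Others were an unpaired t-test, the series of mouse numbers as a block and leaving out each mouse. The methods name that t-test for comparing groups in general and not for the arrays. Added after seeing the data were B253 and B256 forming a block or left out. Promoters and gene names came from RefSeq. Plots were made in Python 3.11.15 using matplotlib 3.10.9.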

Additional observations from a re-analysis of the deposited data

How the results depend on the processing

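The count of receptors past the adjusted threshold was 0 under all 16 alternatives, and of the values that describe a comparison 403 stayed and 13 moved. Most of those that stayed are counts of genes past the adjusted threshold that were 0 as reported and remained 0. Receptors lower at an unadjusted p under 0.05 (1 as reported) numbered 2 with array weights and 2 with B253 and B256 forming a block. They numbered 0 with dim genes left out, with the unpaired t-test, with the series of mouse numbers as a block and without mice B253 and B256 together. Leaving out each mouse in turn gave 0 to 2, with 0 without B304 or B256 and 2 without B302. Receptors higher (3 as reported) numbered 1 to 5 when each mouse was left out, with 1 without B304 or B302 and 5 without B305. With B253 and B256 forming a block, 1 estrogen-responsive gene passed the adjusted threshold, *Myc* at -1.34 (limma adjusted p = 0.0476). No paired analysis was possible because the replicate numbers follow the order of the samples and the mouse numbers are not shared between the groups. The cause of these shifts was not tested.

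Differences near 0 changed sign. Of single genes, 390 values stayed, 22 reversed and 1 gained its call. A value stayed if the gene kept its direction and its side of the adjusted threshold. *Rora* was at -0.0185 with array weights and -0.0225 with quantile normalization, *Hnf4a* at -0.0195 with quantile normalization, and *Nr3c1* at 0.028 with the series as a block. Without mice B253 and B256, *Nr3c1* was at 0.0474, *Nr1h4* at 0.0901, *Ppara* at -0.09 and *Rxra* at -0.0713. When each mouse was left out, *Hnf4a* ranged from -0.127 to 0.193, *Nr1h4* from -0.126 to 0.153, *Ppara* from -0.0125 to 0.365, *Rora* from -0.062 to 0.161, *Rxra* from -0.0276 to 0.154, *Esr2* from -0.144 to 0.0334, *Nr3c1* from -0.214 to 0.0554 and *Nr2c2* from -0.0718 to 0.218. Of the receptors past the unadjusted threshold, *Esr1*, *Nr2c1*, *Nr1h5* and *Rarb* kept their direction under each alternative that measured them.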
